A study of Homo sapiens with 6 samples.

Results

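The beta tubulin isotypes are the genes TUBB, TUBB1, TUBB2A, TUBB2B, TUBB3, TUBB4A, TUBB4B and TUBB6, which were picked by name and matched by Ensembl gene identifier. All 8 were present among the 62656 genes of the deposited tables. Their mRNA was measured by RNA sequencing in OVCAR5, a human ovarian cancer cell line, which had been exposed to 100 nM NTX301 or to the solvent DMSO for 3 days. NTX301 is a hypomethylating agent, a drug class that lowers cytosine methylation in DNA. Each group had 3 libraries, and the cells carried no other treatment or engineered allele in the labels. The NTX301 libraries held 23194160, 23842859 and 23777071 estimated counts, and the DMSO libraries 25572170, 25743732 and 22131175. Separate cultures are not stated for the replicates, so the p-values reflect spread among these libraries, which may be technical. DMSO replicate 3 stood apart from its group: on the second principal component of log2 CPM, with 6.34% of the variance, it lay at -34.47, against 22.54 and 13.47 for the other DMSO libraries.

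Microtubules are polymers of alpha-beta tubulin dimers that form the mitotic spindle, the tracks for transport and the core of cilia. Vertebrates encode several beta tubulins that differ mainly in the acidic tail at the protein's end, the region that modifying enzymes and many motors contact, and each tissue uses its own mixture. The beta subunit also carries the binding site of taxanes, drugs given for ovarian cancer, and high TUBB3 has been studied as a marker of taxane resistance there.

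The coding ends of the 8 isotypes are shown because most isotypes are told apart there, and because likeness between copies limits how reads can be assigned. Each line holds the last 66 coding bases of 1 transcript per gene in GENCODE 29 (GRCh38), with the stop codon in capitals.
TUBB2B: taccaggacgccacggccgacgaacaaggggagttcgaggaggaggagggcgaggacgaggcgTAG
TUBB2A: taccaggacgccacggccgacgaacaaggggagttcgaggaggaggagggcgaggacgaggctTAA
TUBB6: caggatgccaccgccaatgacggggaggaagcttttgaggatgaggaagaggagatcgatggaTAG
TUBB4A: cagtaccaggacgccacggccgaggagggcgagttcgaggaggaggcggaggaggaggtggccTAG
TUBB3: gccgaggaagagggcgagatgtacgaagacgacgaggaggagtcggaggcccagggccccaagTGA
TUBB4B: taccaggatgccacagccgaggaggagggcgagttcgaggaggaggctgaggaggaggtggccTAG
TUBB: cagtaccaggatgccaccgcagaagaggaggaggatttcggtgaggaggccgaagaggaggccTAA
TUBB1: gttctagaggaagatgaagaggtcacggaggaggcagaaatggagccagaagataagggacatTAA
TUBB2A and TUBB2B were 97.0% identical over this stretch and 98.13% identical over the whole coding sequence. Their ends differ only in the base before the stop codon and in the stop codon itself, and they encode the same peptide there. TUBB4A and TUBB4B were 87.0% identical at the end, while TUBB3 ranged from 39.7% to 56.9% against the others. At the opposite end, the first 4 codons were ATGAGGGAAATC in TUBB and TUBB4B, ATGAGGGAGATC in TUBB3 and TUBB6, ATGCGGGAGATC in TUBB4A, ATGCGCGAGATC in TUBB2A, ATGCGTGAGATC in TUBB2B and ATGCGTGAAATT in TUBB1. The peptide these codons encode is read on the ribosome by TTC5, which triggers decay of tubulin mRNA when free tubulin is plentiful.

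With NTX301, 6 of the 7 beta tubulins that could be tested rose and 0 fell. The largest rise was in TUBB2B, a brain-enriched isotype, at 13.2-fold, followed by its near-copy TUBB2A at 5.67-fold and by TUBB6, a divergent isotype, at 4.13-fold. TUBB, the main housekeeping isotype, showed a log2 fold change of -0.00084 ± 0.043 (SE) relative to the typical gene (edgeR, Benjamini-Hochberg adjusted p = 0.987). TUBB1 had too few counts to test. These calls stand against a background in which 70.5% of all 19029 tested genes passed the threshold, an adjusted p under 0.05: 35.4% rose and 35.1% fell. By 2-fold or more, 5 members rose, against 13.4% of all tested genes, and by 4-fold or more 3 members rose, against 4.36%. The CPM values (counts put on 1 library size with TMM factors) of the groups did not overlap for 6 of the 7 tested members, against 73.7% of all tested genes. The median log2 fold change was 1.58 over the tested members and -0.00048 over all tested genes. In bulk RNA, more cells that express an isotype and more RNA per cell cannot be told apart.

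**Figure D1:**
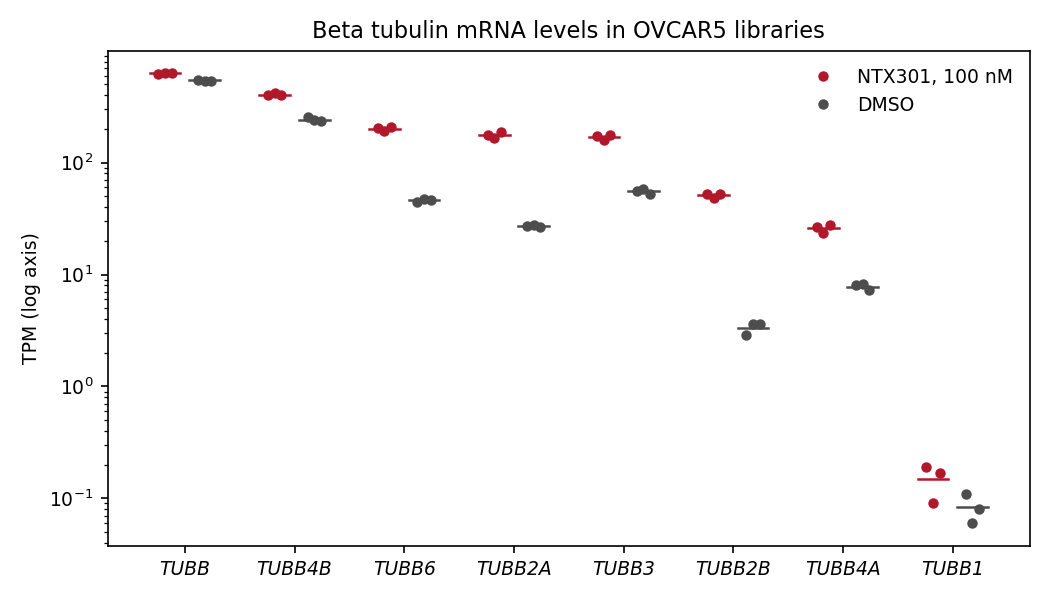
Level of each isotype in TPM (abundance per transcript length, log axis) in the 3 NTX301 libraries and the 3 DMSO libraries. Each point is 1 library and each bar a group mean. The groups lie apart for every isotype but TUBB1, most widely for TUBB2B, at 48.5 to 52.6 TPM with NTX301 and 2.86 to 3.62 TPM with DMSO.

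TUBB2B lies on chromosome 6 (chr6:3224261-3231730, minus strand, GRCh38, 4 exons). It is used by migrating and differentiating neurons, and its mutations cause malformations of the cerebral cortex. It had 52.6, 48.5 and 52.0 TPM in the NTX301 libraries, against 2.86, 3.62 and 3.58 TPM in the DMSO libraries. The lowest NTX301 library was thus far above the highest DMSO library. The expected counts behind these levels were 1286, 1223 and 1261 with NTX301 and 77.6, 97.4 and 81.7 with DMSO. The log2 fold change was 3.72 ± 0.08 (SE, edgeR, Benjamini-Hochberg adjusted p = 2.22e-11).

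TUBB2A is its neighbour on the same strand (chr6:3153669-3157526), 66734 bases away. It encodes an isotype of the same class, expressed more widely. It had 178, 167 and 188 TPM in the NTX301 libraries, against 27.0, 27.6 and 26.6 TPM in the DMSO libraries. The DMSO values lay close together, and the NTX301 values were all far above them. The log2 fold change was 2.50 ± 0.05 (SE, edgeR, Benjamini-Hochberg adjusted p = 2.22e-11).

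The division of counts between TUBB2A and TUBB2B is uncertain because their transcripts share sequence. Of all 75-base windows, the read length that the tables imply, 56.8% of those in TUBB2A also occur in TUBB2B, and 44.4% of those in TUBB2B also occur in TUBB2A. TUBB2B made up 22.3% ± 0.60 of the summed TPM of both genes with NTX301 and 11.0% ± 1.25 with DMSO (SD, n = 3 each, two-sided exact permutation test, p = 0.1, the smallest that 3 against 3 libraries allow). With both genes summed before the fit, the log2 fold change was 2.73, and this sum does not depend on how reads were divided between them.

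TUBB6 (chr18:12307669-12344320, plus strand) encodes an isotype found in many tissues at low levels, and raising it is known to destabilise microtubules in cultured cells. It had 203, 191 and 208 TPM in the NTX301 libraries, against 44.8, 47.2 and 46.5 TPM in the DMSO libraries. The groups were far apart, and none of the 75-base windows of its transcript occurs in another gene. The log2 fold change was 2.05 ± 0.04 (SE, edgeR, Benjamini-Hochberg adjusted p = 2.22e-11).

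TUBB3 (chr16:89921392-89938761, plus strand) encodes the isotype used as a label for neurons. It had 175, 161 and 177 TPM in the NTX301 libraries, against 55.9, 58.3 and 52.0 TPM in the DMSO libraries, without overlap. The log2 fold change was 1.41 ± 0.06 (SE, edgeR, Benjamini-Hochberg adjusted p = 9.62e-10). A readthrough gene, ENSG00000198211, holds 89.2% of the 75-base windows of TUBB3. It had 0, 13.4 and 72.3 counts with NTX301 and 0, 46.4 and 53.5 counts with DMSO, at most 4.89% of the counts of both genes in any library.

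TUBB4A (chr19:6494319-6502848, minus strand) encodes a brain isotype abundant in myelin-forming cells. It had 26.8, 23.7 and 27.7 TPM in the NTX301 libraries, against 8.02, 8.20 and 7.20 TPM in the DMSO libraries. All NTX301 values lay above all DMSO values. The log2 fold change was 1.58 ± 0.08 (SE, edgeR, Benjamini-Hochberg adjusted p = 1.03e-08).

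TUBB4B (chr9:137241213-137243707, plus strand) encodes a widely expressed isotype that also builds the axonemes of cilia. It had 399, 419 and 398 TPM in the NTX301 libraries, against 254, 238 and 234 TPM in the DMSO libraries. This was the smallest rise that passed the test, 1.45-fold, with a log2 fold change of 0.53 ± 0.05 (SE, edgeR, Benjamini-Hochberg adjusted p = 3.24e-06).

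TUBB (chr6:30720201-30725426, plus strand) was the most abundant isotype in all 6 libraries. It had 810, 821 and 783 CPM in the NTX301 libraries, against 842, 799 and 775 CPM in the DMSO libraries. On this scale the groups overlapped. In TPM it had 622, 627 and 629 with NTX301 and 552, 539 and 534 with DMSO, and the groups lay apart. Without a scaling factor between libraries its log2 fold change was 0.20 (edgeR, Benjamini-Hochberg adjusted p = 0.00045), while the median of all tested genes in that fit was 0.21. Whether TUBB is called higher thus depends on the scaling.

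TUBB1 (chr20:59019254-59026654, plus strand), the isotype of platelets and megakaryocytes, was close to undetected. It had 8.04, 4.01 and 7.03 expected counts in the NTX301 libraries, against 5.01, 3.02 and 3.03 in the DMSO libraries. The groups overlapped in TPM, at 0.09 to 0.19 with NTX301 and 0.06 to 0.11 with DMSO. Of its 75-base windows, 32.6% also lie in ATP5F1E, a mitochondrial ATP synthase subunit on the opposite strand that is far more abundant, at 141 ± 12.1 CPM with NTX301 and 102 ± 6.20 CPM with DMSO (SD, n = 3 each). The share of that gene's reads in the TUBB1 counts was not tested.

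**Figure D2:**
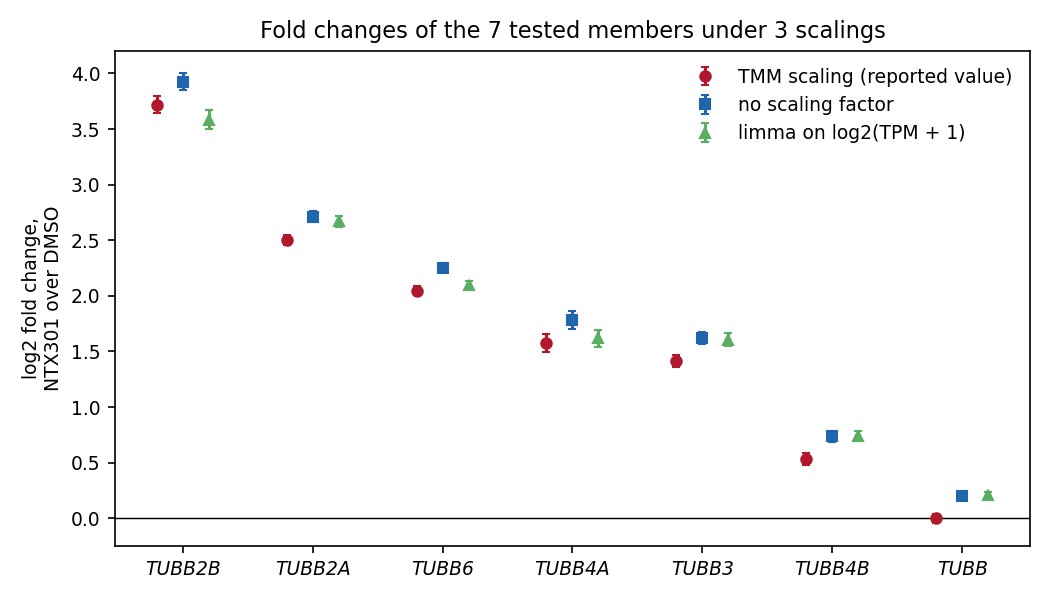
Log2 fold change of NTX301 over DMSO for the 7 tested isotypes, with standard errors, under TMM scaling, without a scaling factor and on log2(TPM + 1). TUBB is at -0.00084 under TMM scaling, 0.20 without a scaling factor and 0.21 on log2(TPM + 1), and the other isotypes lie above 0 in all 3 fits.

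TUBB took a smaller share of beta tubulin mRNA with NTX301, and the isotypes that rose by 2-fold or more took larger ones. With NTX301, TUBB made up 37.8% ± 0.47 of the summed TPM of the 8 members, against 58.7% ± 0.38 with DMSO (SD, n = 3 each), a difference of -20.9 percentage points. TUBB4B made up 24.5% ± 1.02 with NTX301 and 26.2% ± 0.61 with DMSO (SD, n = 3 each), although its own level rose. TUBB6 took 12.1% with NTX301 and 5.0% with DMSO, TUBB2A 10.7% with NTX301 and 2.93% with DMSO, and TUBB3 10.3% with NTX301 and 6.0% with DMSO. TUBB2B took 3.08% with NTX301 and 0.364% with DMSO, and TUBB4A took 1.57% with NTX301 and 0.845% with DMSO. For each of these 7 shares the groups did not overlap (two-sided exact permutation test over 6 libraries, p = 0.1 for each, the smallest possible). The shares add up to the whole, so they are not independent, but they do not depend on scaling between libraries. TUBB1 was near 0.009% in both groups (exact permutation test, p = 1).

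**Figure D3:**
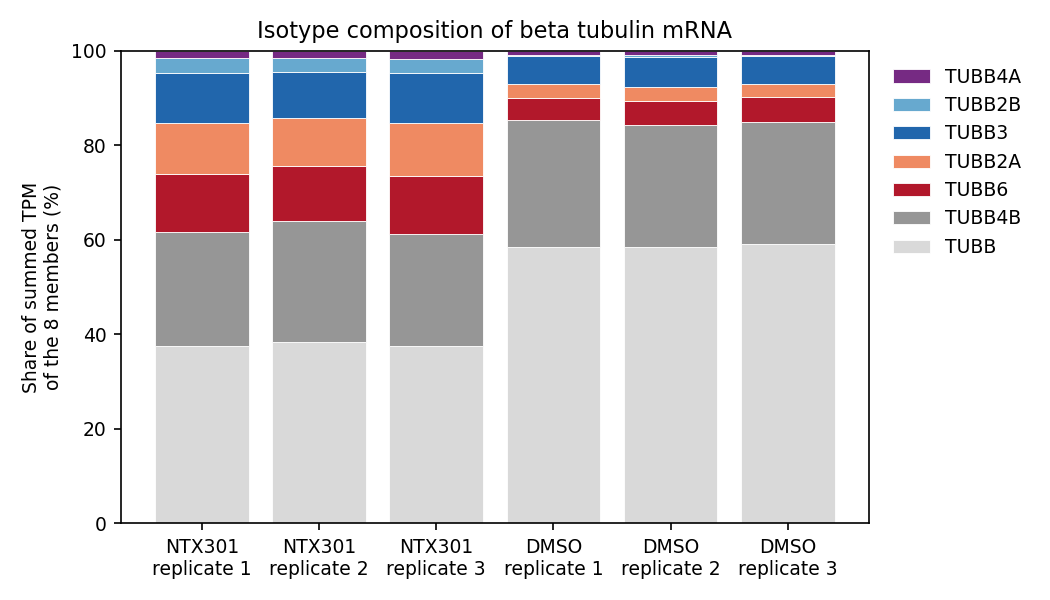
Share of each isotype in the summed TPM of the 8 members, 1 bar per library, NTX301 libraries on the left and DMSO libraries on the right. TUBB takes 37.8% on average with NTX301 and 58.7% with DMSO. TUBB1, near 0.009%, is too small to draw.

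The order of the levels differed between the groups. With NTX301, mean TPM ran from TUBB at 626 through TUBB4B at 405, TUBB6 at 200.4, TUBB2A at 178, TUBB3 at 171, TUBB2B at 51.1 and TUBB4A at 26.1 to TUBB1 at 0.15. Among neighbours in this order, TUBB2A and TUBB3 overlapped between libraries and no others did. With DMSO it ran from TUBB at 542 through TUBB4B at 242, TUBB3 at 55.4, TUBB6 at 46.2, TUBB2A at 27.1, TUBB4A at 7.81 and TUBB2B at 3.35 to TUBB1 at 0.083, and no neighbours overlapped. TUBB6 and TUBB2A thus stood above TUBB3 with NTX301 on average and below it with DMSO, and TUBB2B stood above TUBB4A with NTX301 and below it with DMSO.

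The total level was also higher with NTX301 in every library. The 8 members summed to 1657 ± 22.5 TPM with NTX301 and 924 ± 20.4 TPM with DMSO (SD, n = 3 each, ratio 1.79, two-sided exact permutation test, p = 0.1, the smallest possible). Without TUBB the sums were 1031 ± 21.4 TPM with NTX301 and 382 ± 11.5 TPM with DMSO, a ratio of 2.70. TUBB2A, TUBB2B, TUBB3, TUBB4A and TUBB6 together had 626 ± 32.6 TPM with NTX301 and 140 ± 4.70 TPM with DMSO, a ratio of 4.48. The partner subunits, 9 alpha tubulins, summed to 2067 ± 51.4 TPM with NTX301 and 941 ± 80.3 TPM with DMSO, a ratio of 2.20. TPM is relative to all transcripts of a library, so these sums are shares of the mRNA pool and not amounts per cell.

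Other beta tubulin loci held little of the signal. Of 37 further loci with a TUBB symbol, mostly pseudogenes, 13 had any count, and together they held 0.156% of beta tubulin counts with NTX301 and 0.232% with DMSO. Of these, TUBB8, an oocyte isotype, and the pseudogene TUBBP1 could be tested, and neither passed the threshold.

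Promoter sequences are shown for the 3 members that rose by 4-fold or more and for TUBB, since NTX301 acts on CpG methylation and CpG content differs between promoters. Methylation was not analysed here. Each window spans 250 bases before to 50 bases after a RefSeq transcription start (GRCh38.p14), and where a gene had several windows the one with more CpG is printed. Capitals mark the CCAAT box (CCAAT or ATTGG), the TATA box (TATAAA or TTTATA) and the cAMP response element core (TGACG or CGTCA), searched on both strands.
TUBB2B promoter, chr6:3227604-3227903, minus strand: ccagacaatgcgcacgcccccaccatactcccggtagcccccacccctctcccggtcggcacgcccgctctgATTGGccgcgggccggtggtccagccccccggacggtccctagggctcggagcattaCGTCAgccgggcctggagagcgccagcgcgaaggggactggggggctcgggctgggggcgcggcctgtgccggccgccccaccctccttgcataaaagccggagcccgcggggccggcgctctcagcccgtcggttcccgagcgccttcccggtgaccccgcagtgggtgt
TUBB2A promoter, chr6:3157495-3157794, minus strand: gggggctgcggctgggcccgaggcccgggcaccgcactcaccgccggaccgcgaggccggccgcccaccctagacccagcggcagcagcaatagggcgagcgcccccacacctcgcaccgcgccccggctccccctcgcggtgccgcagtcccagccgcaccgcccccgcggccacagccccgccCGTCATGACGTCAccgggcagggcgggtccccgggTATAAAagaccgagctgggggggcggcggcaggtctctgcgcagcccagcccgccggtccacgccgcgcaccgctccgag
TUBB6 promoter, chr18:12307991-12308290, plus strand: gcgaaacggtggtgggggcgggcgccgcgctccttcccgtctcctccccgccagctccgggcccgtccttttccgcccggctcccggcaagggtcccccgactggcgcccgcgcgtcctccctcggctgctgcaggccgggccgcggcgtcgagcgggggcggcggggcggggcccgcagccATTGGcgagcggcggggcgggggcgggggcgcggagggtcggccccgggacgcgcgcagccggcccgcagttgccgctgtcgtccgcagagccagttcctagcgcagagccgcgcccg
TUBB promoter, chr6:30721388-30721687, plus strand: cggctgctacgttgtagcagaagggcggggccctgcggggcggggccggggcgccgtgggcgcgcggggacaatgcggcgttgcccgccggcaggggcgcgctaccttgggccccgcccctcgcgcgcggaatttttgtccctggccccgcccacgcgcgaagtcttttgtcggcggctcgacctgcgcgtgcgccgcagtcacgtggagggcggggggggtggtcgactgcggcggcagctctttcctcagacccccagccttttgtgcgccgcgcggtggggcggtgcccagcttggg
The TUBB2B window holds 34 CpG dinucleotides, the TUBB2A window 41, the TUBB6 window 50 and the TUBB window 43, against a median of 14 and an upper quartile of 28 over 35114 windows of the same length. These are the CpG-richer windows of TUBB6 and TUBB, and their other windows held 20 and 25, under the upper quartile. Among the other isotypes, the CpG-richer window of TUBB3 held 47, that of TUBB4A 27, the window of TUBB4B 18 and that of TUBB1 3. The windows of members that rose lay on both sides of the upper quartile, and so did the windows of TUBB. A link between CpG content and the rises was not tested.

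A CCAAT box occurs in the printed windows of TUBB2B and TUBB6, in 34.62% of all windows, and not in those of TUBB2A and TUBB. The unprinted window of TUBB holds it as well, as does a window each of TUBB3, TUBB4A and TUBB4B. TUBB2A alone among the members held the TATA box, which is in 11.53% of all windows. It also held the full cAMP response element TGACGTCA, in 1.85% of all windows, whose cores overlap it. The core occurs in the TUBB2B window too, in a window each of TUBB4A and TUBB4B, in the unprinted window of TUBB and in 24.55% of all windows.

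Genes next to the members moved in both directions. Of the 16 nearest tested protein-coding genes, 1 on each side of each member, 8 rose and 5 fell, with a median log2 fold change of 0.08. Over all tested genes, 35.4% rose and 35.1% fell. TUBB2A and TUBB2B are each other's neighbour and are among the 8 that rose. PRELID3A, a gene of the family of mitochondrial lipid carriers, lies 63575 bases from TUBB6 and rose with a log2 fold change of 1.45 ± 0.17 (SE). IMPA2, on the other side of TUBB6, fell (-0.43 ± 0.06). AFG3L2, which overlaps TUBB6 on the opposite strand, was called lower (-0.20 ± 0.04), although its groups overlapped in TPM. The largest falls among the 16 were beside TUBB4B, in STPG3 (-2.54 ± 0.57) and SLC34A3 (-1.24 ± 0.29), both low in counts. On either side of TUBB4A, DENND1C had a log2 fold change of 0.92 ± 0.10 and TNFSF9, an immune costimulatory ligand, of 0.71 ± 0.07, and MDC1, a DNA damage mediator beside TUBB, had one of 0.53 ± 0.04. BPHL, 90 bases from TUBB2A and encoding a hydrolase, had 17.2 ± 0.68 CPM with NTX301 and 18.7 ± 0.70 CPM with DMSO (SD, n = 3 each), not past the threshold, and was called lower without DMSO replicate 3 (log2 fold change -0.17). MC1R, the melanocortin receptor 414 bases from TUBB3, fell with a log2 fold change of -0.58 ± 0.10, and DEF8 on the other side fell with one of -0.77 ± 0.05. Both calls were lost on log2(TPM + 1), where the log2 fold change was -0.28 for MC1R and -0.08 for DEF8.

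The genes most like TUBB2B in profile were found among 10042 protein-coding genes averaging at least 10 CPM, by the root-mean-square distance between log2 CPM profiles over 6 libraries, each centred on its mean. SNAI2, a repressor of epithelial genes, was nearest at 0.131, with 41.5 ± 1.90 CPM with NTX301 and 3.31 ± 0.16 CPM with DMSO. PTGS2, the inducible cyclooxygenase, followed at 0.136, and SPARC, a matrix glycoprotein, at 0.143. The profiles are set mainly by the difference between the groups, so likeness over 6 libraries says little beyond a similar fold.

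Alpha tubulins, the partners of the members in the dimer, rose in 4 of 5 tested genes of 9, with a median log2 fold change of 0.97. For this and each later list the background is all tested genes, of which 35.4% rose and 35.1% fell. TUBA4A, an isotype abundant in brain and platelets, had 164 ± 3.00 CPM with NTX301 and 29.7 ± 2.86 CPM with DMSO (SD, n = 3 each), a log2 fold change of 2.46 ± 0.06 (SE). TUBA1B, the main housekeeping alpha tubulin, had 1125 ± 7.74 CPM with NTX301 and 574 ± 56.6 CPM with DMSO. TUBA1A, the isotype of developing neurons, had 67.8 ± 2.14 CPM with NTX301 and 64.1 ± 8.02 CPM with DMSO (edgeR, Benjamini-Hochberg adjusted p = 0.368). Without a scaling factor it was called higher, with a log2 fold change of 0.28, and without DMSO replicate 3 its log2 fold change was -0.034. TUBA1A, TUBA1B and TUBA1C are close in sequence, so the division of reads among them is uncertain.

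Genes of gamma tubulin and its ring complex, which nucleate microtubules, were listed with delta and epsilon tubulin. Of 14 tested, 10 rose and 2 fell, against 35.4% and 35.1% of all tested genes. Their median log2 fold change was 0.36. TUBG1, the main gamma tubulin, had a log2 fold change of 0.96 ± 0.06 and MZT1, a small ring complex subunit, of 0.93 ± 0.07. TUBGCP6 and TUBGCP2, scaffold subunits of the complex, fell with log2 fold changes of -0.78 ± 0.08 and -0.25 ± 0.04, and the call of TUBGCP2 was lost without a scaling factor. Tubulin folding genes rose in 13 and fell in 5 of 22 tested, with a median of 0.27. TCP1 and CCT5, subunits of the chaperonin that folds tubulin, had log2 fold changes of 0.87 ± 0.04 and 0.74 ± 0.04. ARL2 and TBCA, which act in the steps after the chaperonin, had -0.84 ± 0.07 and -0.42 ± 0.06. TTC5, the sensor of tubulin mRNA decay named for its role and not by size, had 15.6 ± 0.75 CPM with NTX301 and 18 ± 1.81 CPM with DMSO, a log2 fold change of -0.21 ± 0.08 (edgeR, Benjamini-Hochberg adjusted p = 0.037). That call was lost with DESeq2, without a scaling factor and on TPM, and also without NTX301 replicate 2 (log2 fold change -0.22), NTX301 replicate 3 (-0.17), DMSO replicate 1 (-0.14) or DMSO replicate 2 (-0.23). In TPM, TTC5 had 6.37 ± 0.17 with NTX301 and 6.35 ± 0.48 with DMSO (SD, n = 3 each). Without a scaling factor the folding genes rose in 16 and fell in 3.

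Enzymes that modify tubulin, mostly at the protein tails, rose in 6 and fell in 10 of 20 tested genes, with a median log2 fold change of -0.38. These are 30% and 50%, against 35.4% and 35.1% of all tested genes. TTLL1, a glutamylase subunit, had 2.29 ± 0.68 CPM with NTX301 and 7.45 ± 0.31 CPM with DMSO (SD, n = 3 each). MATCAP1, a peptidase that removes the terminal tyrosine of alpha tubulin, had 12.2 ± 0.36 CPM with NTX301 and 34.2 ± 3.58 CPM with DMSO. TTLL12 and TTLL11 rose, with log2 fold changes of 0.69 ± 0.04 and 0.50 ± 0.15. Further genes were chosen after their values were seen. The tubulin deacetylases HDAC6 and SIRT2 had log2 fold changes of -0.73 ± 0.05 and -1.01 ± 0.05. ATAT1, the tubulin acetylase, had one of -0.66 ± 0.09.

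Stabilisers and structural microtubule-associated proteins rose in 9 and fell in 9 of 19 tested genes, with a median of 0.05. Each is 47.4%, against 35.4% and 35.1% of all tested genes. These figures include ENSA, a phosphatase inhibitor and not a microtubule-associated protein, which fell (log2 fold change -0.43 ± 0.04). DCLK1, a doublecortin-like kinase, had 21.8 ± 1.89 CPM with NTX301 and 2.62 ± 0.24 CPM with DMSO, and MAP1A had 5.76 ± 0.57 CPM with NTX301 and 1.18 ± 0.19 CPM with DMSO (SD, n = 3 each). EML4 had 238 ± 5.62 CPM with NTX301 and 641 ± 27.8 CPM with DMSO, and MAPT, which encodes tau, had 24.3 ± 1.00 CPM with NTX301 and 58.2 ± 1.54 CPM with DMSO. Destabilisers and severing enzymes rose in 9 and fell in 2 of 12 tested genes, with a median of 0.63. The kinesins KIF18A and KIF2C, which act on microtubule ends in mitosis, had log2 fold changes of 1.43 ± 0.05 and 1.41 ± 0.06, while STMN3, a stathmin, and SPAST, a severing enzyme, had -0.82 ± 0.04 and -0.57 ± 0.05. Proteins of the plus and minus ends rose in 10 and fell in 6 of 17 tested genes, with a median of 0.15. The share that fell, 35.3%, was near that of all tested genes. Without a scaling factor these end-binding genes rose in 11 and fell in 1. CKAP5 and TACC3, which promote growth of spindle microtubules, had log2 fold changes of 0.78 ± 0.04 and 0.76 ± 0.05, and CAMSAP3 and CLIP2 had -0.39 ± 0.07 and -0.30 ± 0.05. Without a scaling factor the call of CLIP2 was lost.

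**Figure D4:**
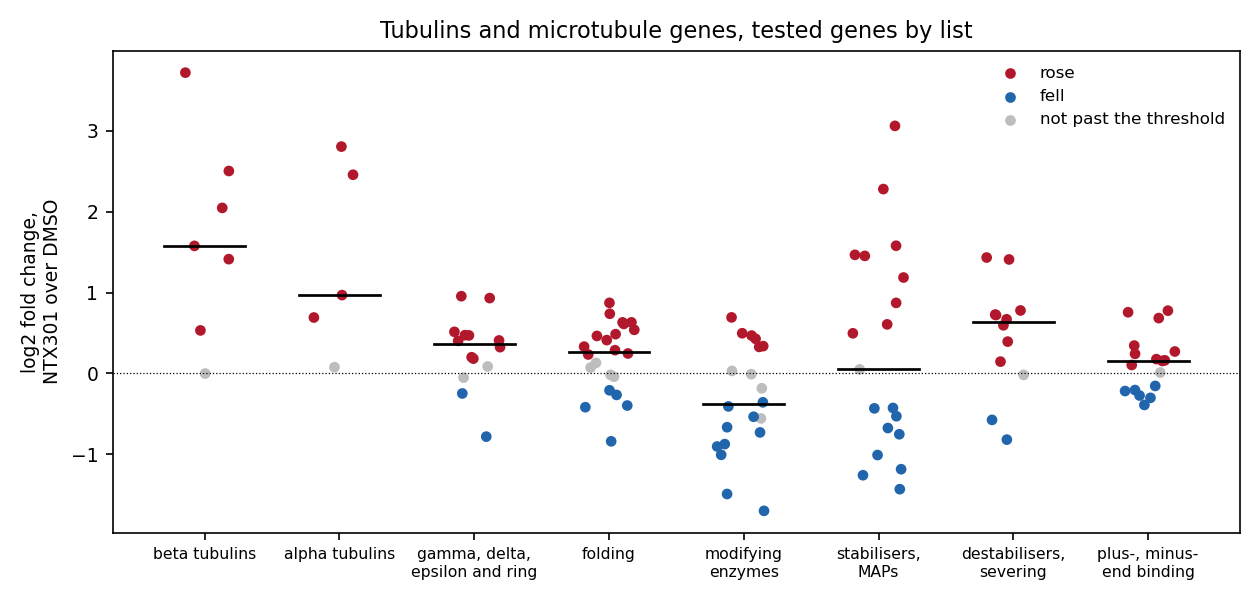
Log2 fold change of NTX301 over DMSO for each tested gene of 8 lists of tubulins and microtubule genes, with the median of each list as a bar. The median is 1.58 for the beta tubulins, 0.97 for the alpha tubulins and between -0.38 and 0.63 for the other lists.

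Since TUBB2B and TUBB3 are typical of neurons, TUBB4A of brain and TUBB1 of platelets, marker lists of other cells were read in the same libraries. Of 15 neuronal markers, 12 stayed under 1 CPM in every library and DCX was at 0. Of the 4 tested markers, 3 rose, against 35.4% of all tested genes. The list summed to 47.8 to 52.7 CPM with NTX301 and 37.3 to 39.1 CPM with DMSO, mostly from ENO2, a glycolytic enzyme, at 43.7 ± 2.30 CPM with NTX301 and 35.7 ± 0.49 CPM with DMSO (SD, n = 3 each). SYP, a synaptic vesicle protein, rose to 3.67 ± 0.39 CPM with NTX301, against 1.29 ± 0.21 CPM with DMSO. SYN1, another synaptic vesicle protein, named after its values were seen, rose to 1.43 ± 0.22 CPM with NTX301, against 0.084 ± 0.085 CPM with DMSO, a fitted log2 fold change of 3.96 ± 0.48 (SE) that rests on 6.0 counts over the DMSO libraries. Of 8 platelet markers, PF4 and GATA1 were at 0, and the list summed to 6.64 to 8.21 CPM with NTX301 and 6.74 to 7.86 CPM with DMSO. Fibroblast and smooth muscle markers, 10 in number, summed to 32.4 to 33.5 CPM with NTX301 and 6.88 to 8.52 CPM with DMSO. Of 8 tested, 6 rose and 1 fell, against 35.4% and 35.1% of all tested genes. CNN1, a smooth muscle calponin, had 10.7 ± 0.22 CPM with NTX301 and 0.479 ± 0.085 CPM with DMSO. PDGFRA, a growth factor receptor of fibroblasts, had 5.16 ± 0.32 CPM with NTX301 and 0.649 ± 0.115 CPM with DMSO, while LUM, a matrix proteoglycan, had 1.05 ± 0.084 CPM with NTX301 and 1.67 ± 0.15 CPM with DMSO. Their part in the rise of the tubulins was not tested.

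The epithelial and ovarian carcinoma markers checked the labelled line. They summed to 2122 to 2247 CPM with NTX301 and 3980 to 4267 CPM with DMSO. Of 9 tested, 2 rose and 5 fell, or 22.2% and 55.6%, against 35.4% and 35.1% of all tested genes. PAX8 was present at 10.0 ± 0.60 CPM with NTX301 and 8.63 ± 1.17 CPM with DMSO (SD, n = 3 each), not past the threshold but called higher without a scaling factor or without DMSO replicate 3, while WT1 was near 0, at 0.131 CPM with NTX301 and 0.042 CPM with DMSO. KRT18, an epithelial keratin, had 692 ± 18.1 CPM with NTX301 and 1467 ± 65.4 CPM with DMSO. KRT7, another keratin, had 233 ± 3.82 CPM with NTX301 and 97.7 ± 6.46 CPM with DMSO.

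Without DMSO replicate 3, which stood apart from the other DMSO libraries, the same 6 members rose, with log2 fold changes of 3.74 for TUBB2B, 2.46 for TUBB2A, 2.02 for TUBB6, 1.48 for TUBB4A, 1.34 for TUBB3 and 0.48 for TUBB4B. The share of TUBB then differed by -20.7 percentage points.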

How the data were processed

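RNA sequencing of OVCAR5 cells was compared between 3 NTX301 libraries (100 nM) and 3 DMSO libraries, grouped by the labels. The 10 nM dose and the methylation arrays named in the labels were not analysed here. The members and the gene lists were chosen with earlier results of these data known.

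Per the file headers, the authors deposited RSEM gene tables. The expected counts deposited in them estimate the reads of each gene without normalization, and reads that match several genes are divided by RSEM's own estimate. The deposited TPM values are abundances per length scaled to the same total in each library. The deposited FPKM values were not used. For tool versions, genome build and strand setting, nothing is stated in the sources used here. Gene length exceeded effective length by 74 bases in 99.9966% of all but short genes, from which reads of 75 bases follow.

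The 47 pseudoautosomal Y entries (0.0224% of counts) were added to their X copies, and 62639 of 62656 genes matched a name by identifier. Positions, exons and coding sequence came from GENCODE 29 (GRCh38), an older release than that of the files, and promoters from RefSeq (GRCh38.p14), which held 12 windows for the 8 members. Expected counts were rounded and tested with edgeR 4.0.16 in R 4.3.3 (filterByExpr, TMM, glmQLFit, glmQLFTest) over all 6 libraries, with Benjamini-Hochberg adjustment over 19029 genes and a threshold of 0.05. Calls named as rose or fell are from this fit unless another fit is named with them. CPM uses TMM-scaled totals, with factors of 1.068 to 1.083 for NTX301 and 0.9209 to 0.9391 for DMSO. The common biological coefficient of variation was 0.0478. The fit was also run on simulated counts in which few genes changed, balanced between the directions. Most genes passed the threshold in the real libraries, so that run does not test the scaling between libraries. Shares and sums of TPM were compared by two-sided exact permutation tests. Alternatives were DESeq2 1.42.0, limma 3.58.1 on log2 TPM and with voom, other scalings, no filter on low counts, near-identical copies summed, and each library left out.

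Named list genes are up to 2 called genes per direction and list with the largest log2 fold change, averaging at least 1 CPM. A gene that this rule also names is not reported here. Chi-square per degree of freedom was 2.37 to 6.57 for libraries of the same group and 111 to 124 across groups, above sampling noise, and all 6 libraries were kept as replicates.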

Additional observations from a re-analysis of the deposited data

How the results depend on the processing

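The 6 members called higher kept that call under every alternative that could test them, up to 16 each. TUBB changed sign: its log2 fold change was 0.0030 with DESeq2, 0.0030 with relative log expression factors, 0.20 without a scaling factor, 0.21 on log2(TPM + 1) and 0.21 on log2(TPM + 0.1), and it ranged from -0.041 to 0.023 when 1 library was left out. It passed the threshold in the fits without scaling (edgeR, Benjamini-Hochberg adjusted p = 0.00045) and on TPM (adjusted p = 0.0012 and 0.00087 with limma), where 7 members rose. Over all its alternatives the adjusted p ran from 0.00045 to 0.996. Those scalings move the median of all genes, by 0.21 without a scaling factor, 0.13 on log2(TPM + 1) and 0.23 on log2(TPM + 0.1).

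Over all tested genes, 4205 fell on log2(TPM + 1) and 4201 on log2(TPM + 0.1), against 6677 in the reported fit, and the share of calls that rose was 64.9% without scaling, 68.2% on log2(TPM + 1) and 68.4% on log2(TPM + 0.1), against 50.2% with TMM. The summed TPM ratio of the 8 members was 1.53 with median-of-ratios factors on TPM, against 1.79. Of 56 other named genes followed through the alternatives, 43 kept their side of the threshold and direction in every alternative. Those that lost a call somewhere include TUBGCP2, TTLL11, CAMSAP3, CLIP2, LUM, TTC5, MC1R, DEF8 and TUBA1B-AS1. The sign turned for 3: TTC5 had 0.0057 on log2(TPM + 1) and 0.0068 on log2(TPM + 0.1), BPHL had 0.081 without a scaling factor, 0.074 on log2(TPM + 1) and 0.077 on log2(TPM + 0.1), and TUBA1A ranged from -0.034 to 0.12 when 1 library was left out. The cause was not tested.

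Replicate numbers are shared between the groups, but same-numbered libraries deviated together little (r = 0.08, -0.028 and 0.043), and not every library correlated best with its own number. With the replicate block, 6837 genes rose and 6749 fell, and the members' calls were the same. Counts of a few reads limit TUBB1 and the pseudogenes.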

Other observations

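Some further loci with alpha tubulin names rose too, with low or uneven levels. Such loci that did not rise were not counted here, and 35.4% of all tested genes rose. TUBAP2, a pseudogene, averaged 5.53 CPM with NTX301 and 2.98 CPM with DMSO, a log2 fold change of 0.89 ± 0.15 (SE). TUBA3FP, another pseudogene, averaged 2.49 CPM with NTX301 and 1.06 CPM with DMSO, with a log2 fold change of 1.23 ± 0.26. The share of other alpha tubulins' reads in the counts of these pseudogenes was not tested. TUBA1B-AS1, antisense to TUBA1B, averaged 67.5 CPM with NTX301 and 13.8 CPM with DMSO, with a log2 fold change of 2.32 ± 0.55, a call that was lost with DESeq2 and on TPM, and without a stated strand setting its reads cannot be told apart from those of TUBA1B. These genes were named after their values were seen.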
